A study of Mus musculus with 4 samples.

Results

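Target sites used in both orientations are short stretches of the mouse genome at which vector DNA was found joined to the plus strand at one edge of a 5 bp target and to the minus strand at the other edge. HIV integrase joins the ends of the viral DNA to the strands of the target with a stagger of 5 bp, and repair of the gaps copies those 5 bp on each side of the provirus. A provirus can enter a target in either orientation, and the junction read from a fixed end of it then lies on the plus strand at the first of the 5 bp or on the minus strand at the last. Integrase has only a weak preference for the bases of its target, which is close to a palindrome, while the host protein LEDGF/p75 usually steers it to active genes.

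The sites were chosen by the positions and strands of the listed junctions. A site was taken as a member when the lists held a plus junction at position p and a minus junction at p + 4 (an offset of +4, in 1-based coordinates), in the same library or in different ones. Of 121567 distinct junction positions in the pooled lists, 60848 were on the plus strand, and 529 of these had a minus junction at the offset of +4. The 529 target sites were 0.869% of the plus positions, against 0.0852% for an average one of the 60 other offsets from -30 to +30. The offset is the rule that chose the sites, so these values are a description and carry no test.

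The cells were mouse embryonic fibroblasts of strain C57BL/6 with the genotype Psip1 (-/-), so all libraries lack LEDGF/p75, the product of Psip1. They were nucleofected with plasmids for TAF3 joined to the part of LEDGF that holds integrase, and sorted for GFP. TAF3 belongs to TFIID, the complex that starts assembly of the transcription machinery at promoters. The fusion held full-length TAF3 (Full) or only its PHD finger (PHD), a domain that binds histone H3 trimethylated on lysine 4, and was wild type (WT) or carried the M880A substitution. Infection with 500 ng of a luciferase vector with VSV-G envelope, with polybrene at 8 ug/mL, followed after 24 to 36 h of recovery. The cells were harvested 48 to 72 h later. No library without a TAF3 fusion was analysed here.

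Each of the 4 forms had 1 library, with 22486 junctions in Full WT, 39292 in Full M880A, 25363 in PHD WT and 34888 in PHD M880A. The numbers taken as reads summed to between 2085037 and 3651264 per library. There was no replicate, so intervals (95%) cover counting error only and differences compare these libraries, not the conditions. Full WT was read on another flow cell than the remaining 3 libraries, which had a common one. The labels name primers for the HIV LTR without saying which end of the provirus was read. Within a library, a pair at +4 from 1 provirus read at both ends and a pair from separate proviruses in opposite orientations cannot be told apart. Pairs between libraries join junctions from cells labelled with different fusions.

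Within every library the offset of +4 held more pairs than any other offset from -30 to +30. Full WT had 41 pairs (exact Poisson interval 29.4 to 55.6), against a mean of 4.07 and a highest value of 9 at the other offsets. Full M880A had 32 pairs (21.9 to 45.2), against a mean of 3.05 and a highest value of 10. PHD WT had 141 (119 to 166), against 12.3 and 33. In PHD M880A 8 pairs were found (3.45 to 15.8), where the other offsets had a mean of 0.517 and never more than 2.

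As a share of plus junctions, pairs at +4 made up 0.363% in Full WT, 0.163% in Full M880A, 1.11% in PHD WT and 0.0459% in PHD M880A. An average other offset gave 0.036%, 0.0156%, 0.097% and 0.00296% in the same order. Target sites read in both orientations by 1 library were thus most frequent in PHD WT and least frequent in PHD M880A, and the pairs at other offsets had the same order. Divided by the mean of the other offsets, the count at +4 was 10.1 (7.06 to 14.1) in Full WT, 10.5 (6.97 to 15.3) in Full M880A, 11.4 (9.47 to 13.7) in PHD WT and 15.5 (6.15 to 34.4) in PHD M880A. The 4 intervals overlapped, and they are no test of the offset, which is the rule that chose the sites. With 1 library each, whether the excess differs between forms of TAF3 has no replicate check.

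**Figure D1:**
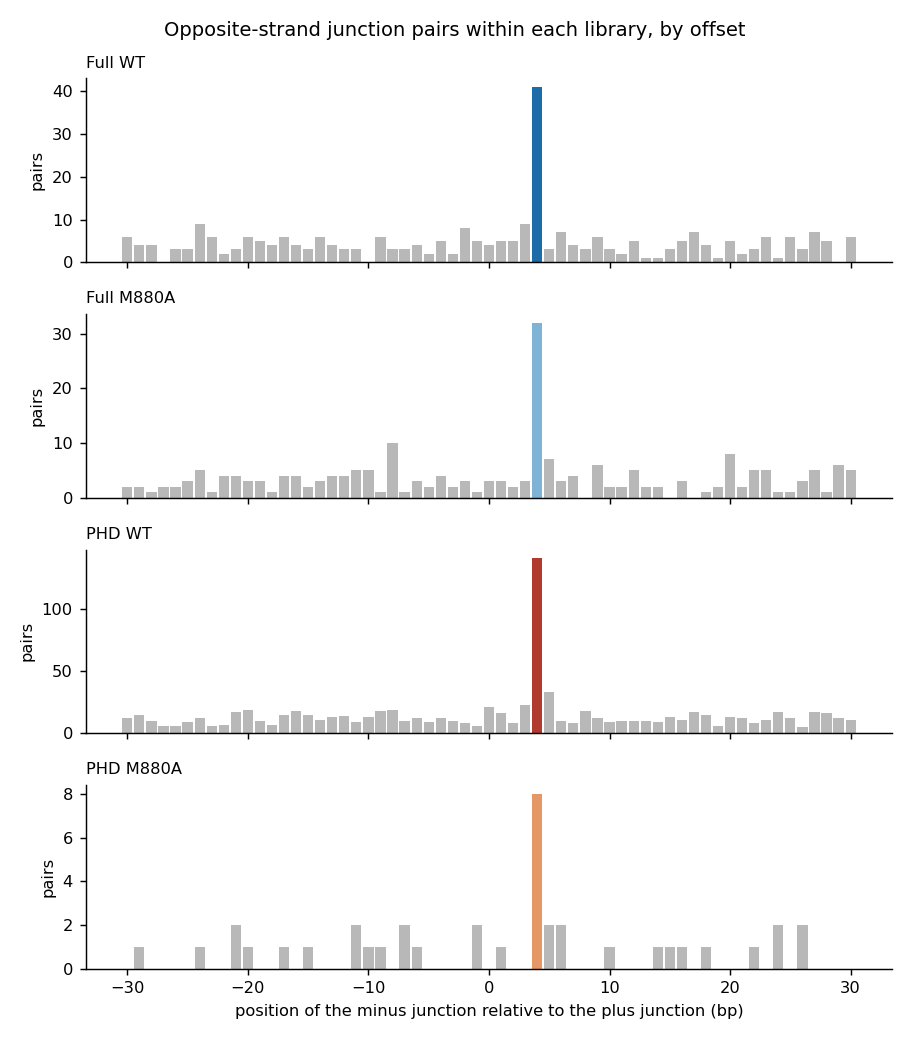
Number of opposite-strand junction pairs (y axis, a scale per library) by the position of the minus junction relative to the plus junction in bp (x axis), within each library. The coloured bar is the offset of +4, with 41, 32, 141 and 8 pairs from top to bottom, and the grey bars are the 60 other offsets.

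In the pooled lists there were 103 pairs at +3 and 101 at +5, just outside the rule, against 529 inside it. The mean of the other offsets, with +3 and +5 among them, was 51.9, and the highest count at the remaining 58 was 90. Of the pairs at +3, 12.6% used a junction that also belonged to a member, and of those at +5 12.9% did, compared with 7.33% over the 58 offsets. Member junctions were not often next to another position on the same strand: in PHD WT 1.72% of them had one of that library within 3 bp, against 3.24% of its other junctions. The values were 2.41% and 2.17% in Full WT, 1.71% and 2.28% in Full M880A, and 2.94% and 1.91% in PHD M880A. The direction thus differed between libraries. The member shares rest on only 9 junctions in PHD WT, 7 in Full WT, 4 in Full M880A and 2 in PHD M880A.

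The same offset stood out between libraries, where the plus junction came from one library and the minus junction from another. Over the 6 pairs of libraries there were 368 pairs at +4 (331 to 408), against a mean of 33.4 and a highest value of 71 at the other offsets, a ratio of 11.0 (9.84 to 12.3). They were 0.201% of the possible plus junctions, against 0.0182% for an average other offset. Full WT and PHD WT shared the most, with 143 pairs at +4. Full M880A and PHD WT shared 97, Full WT and Full M880A 69, and PHD WT and PHD M880A 30. The fewest were 15 in Full M880A with PHD M880A and 14 in Full WT with PHD M880A. Over both directions, the lowest ratio to the other offsets was 9.13 (4.80 to 16.1), in Full WT with PHD M880A. The highest was 12.3 (6.57 to 21.7), in Full M880A with PHD M880A, and all 6 intervals overlapped. By direction, the highest ratio was 16 (9.25 to 26.5), with plus in PHD WT and minus in PHD M880A. The lowest was 5.17 (1.62 to 12.8), with plus in PHD M880A and minus in Full WT. There +4 was not the highest offset, with 5 pairs against 7 at +3. Pairs that joined the flow cells numbered 226, with a ratio of 10.8 (9.32 to 12.4), and pairs among the 3 libraries of the shared flow cell 142, with a ratio of 11.4 (9.48 to 13.7).

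**Figure D2:**
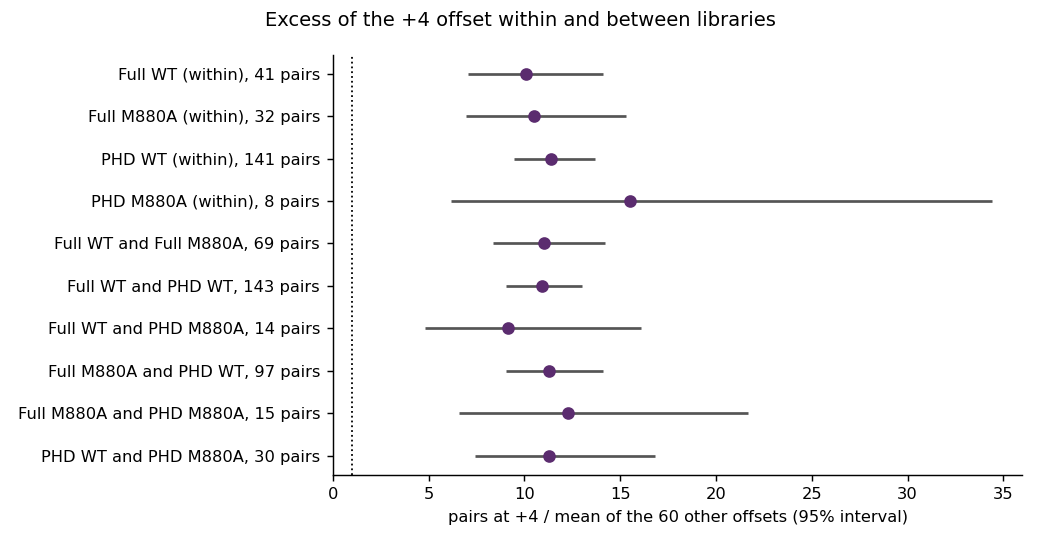
Pairs at the offset of +4 divided by the mean of the 60 other offsets (x axis), for the 4 libraries by themselves and the 6 pairs of libraries (y axis, with the number of pairs at +4). Points are ratios and lines exact conditional 95% intervals, the lowest of which starts at 4.80. The dotted line marks a ratio of 1 for reading the axis and is no test, since the offset is the rule that chose the sites.

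A target can also be used again in the same orientation. Between libraries, a junction at the identical position and strand was counted as such reuse. Whether these matches, and the opposite-strand pairs between libraries, came from separate integrations was not tested. Over the 6 pairs of libraries there were 482 matches at the identical position and strand. That was 13.9 (12.5 to 15.3) times the mean of the other same-strand offsets from -30 to +30. Reuse in the opposite orientation made up 43.3% (Clopper-Pearson interval 39.9 to 46.7) of all reuse counted between libraries. A site listed by several libraries can enter several pairs of libraries. Intervals over summed pairs of libraries take its matches as independent and are too narrow for that reason. Without Full WT, which leaves the pairs of the shared flow cell, it was 45.7% (40 to 51.4), an interval that holds 50%, and in the pairs that joined the flow cells it was 41.9% (37.7 to 46.2). The opposite orientation held 50.7% (42.0 to 59.4) in Full WT with Full M880A, 48.3% (41.2 to 55.4) in Full M880A with PHD WT, 42.9% (31.1 to 55.3) in PHD WT with PHD M880A and 37.5% (22.7 to 54.2) in Full M880A with PHD M880A. The intervals of those 4, not adjusted for the 6 pairs looked at, held 50%. Those of the other 2 lay below it: 41.7% (36.4 to 47.1) in Full WT with PHD WT, from 143 opposite and 200 identical positions, and 23.3% (13.4 to 36.0) in Full WT with PHD M880A, from 14 and 46. Both of these pairs joined different flow cells, and so did Full WT with Full M880A. Among sites with at least 10 reads the share over all pairs was 46.8% (41.9 to 51.8), an interval that also holds 50%.

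**Figure D3:**
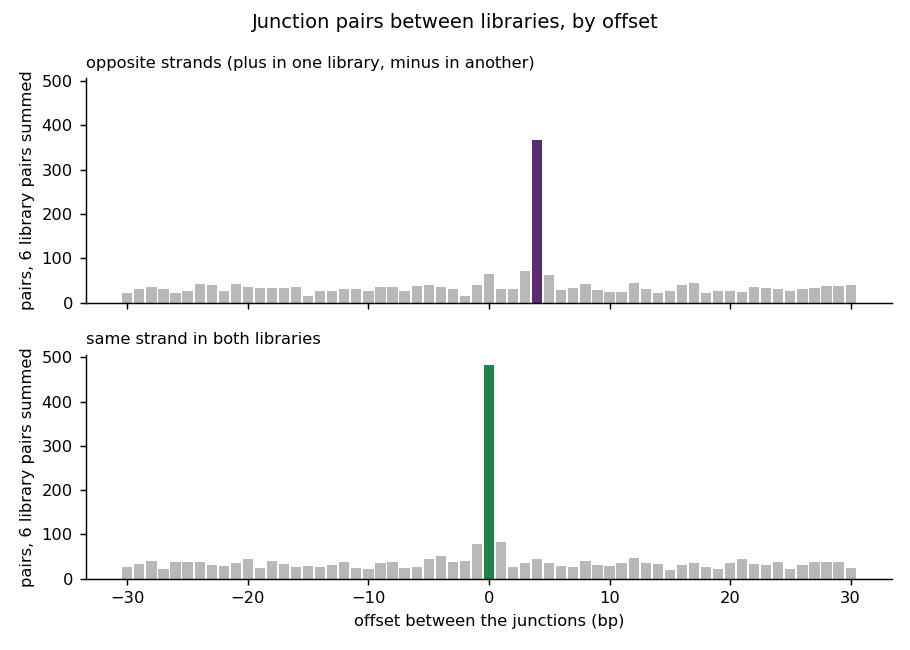
Number of junction pairs between libraries, summed over the 6 pairs of libraries (y axis), by the offset in bp (x axis). In the upper panel the junctions are on opposite strands and the coloured bar at +4 has 368 pairs; in the lower panel they are on the same strand and the coloured bar at 0 has 482.

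The 529 target sites divided into 220 with both orientations in 1 library and 309 found only by joining libraries, 58.4% (54.1 to 62.6). Of the 220, 30 were listed by a further library as well. Members involved 1 library in 190 cases, 2 libraries in 314, 3 in 24 and all 4 in 1. This division was not made for pairs at other offsets. An average other offset had 20 pairs within libraries and 33.4 between them, against 222 and 368 at +4. The ratios were alike, 11.1 within and 11.0 between, so the division is not particular to the members by these counts. PHD WT listed 383 of the 529 sites on either strand, Full WT 249, Full M880A 202 and PHD M880A 60. These shares lay near those of pairs at the other offsets: PHD WT was listed at 72.4% of members and 69.3% of such pairs, Full WT at 47.1% and 47.6%, Full M880A at 38.2% and 36.3%, and PHD M880A at 11.3% and 11.2%. Only M880A libraries listed 44 of the members, 8.32% (6.11 to 11.0), and 8.68% (7.71 to 9.72) of the pairs at other offsets. Of all junctions, those at member sites were 2.07% in PHD WT, 1.29% in Full WT, 0.596% in Full M880A and 0.195% in PHD M880A.

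Sites used in both orientations also had more reuse in the same orientation. Of the 1058 member junction positions, 5.20% (3.94 to 6.71) were listed by more than 1 library on the same strand, against 1.19% (0.915 to 1.52) of the 5300 junction positions that formed pairs at other offsets only. Over all junction positions the share was 0.364%. At 52 of the 529 sites at least 3 of the 8 combinations of library and strand were filled. The pooled lists hold a position 1 time, however many libraries list it. The offset of +4 was part of the rule, so the difference is given without a test, and its cause was not tested. When every position listed by several libraries was left out, the ratio at +4 was 9.97 (8.51 to 11.6) within libraries and 9.16 (8.06 to 10.4) between them.

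The sites with the most combinations of library and strand are given with their reads (mm9, the position of the plus junction followed by that of the minus junction). On chromosome 18 at 83081592 and 83081596, Full WT had 7 reads on plus and 263 on minus and PHD WT 593 and 76, and the M880A libraries were not listed. On chromosome 17 at 45693649 and 45693653, Full WT had 54 and 82 reads and PHD WT 69 and 11, again with neither M880A library. These 2 were the only sites with both orientations in each of 2 libraries. On chromosome 19 at 5475473 and 5475477, Full WT had 40 reads on plus and 626 on minus, Full M880A 2 on plus and PHD WT 44 on minus. On chromosome 11 at 120208789 and 120208793, the plus junction had 288 reads in Full WT, 35 in Full M880A and 24 in PHD M880A, and the minus junction 83 in PHD M880A alone. Here PHD WT, the library with most members, was not listed on either strand. The site of chromosome 10 at 70807193 and 70807197 was the only one with all 4 libraries, with 20 plus reads in Full WT, 122 in PHD WT and 2 in PHD M880A, and 2 minus reads in Full M880A. The values of both M880A libraries were thus at the lowest number that the lists hold.

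The next sites each combined junctions with unequal reads. On chromosome 11, 6373625 and 6373629 had 2, 3 and 7 plus reads in Full WT, Full M880A and PHD WT and 99 minus reads in PHD WT. In the same crowded place, 6374541 and 6374545 had 38 plus reads in PHD WT and 845 and 23 minus reads in Full WT and PHD M880A. Also on chromosome 11, 100830418 and 100830422 had 2 plus reads in PHD WT and 1006 and 4 minus reads in Full WT and PHD WT. On chromosome 8, 127186433 and 127186437 had 439 plus reads in Full M880A and 469 in PHD WT, and 3 minus reads in Full WT. On chromosome 16, 4595683 and 4595687 had 126 plus reads in Full M880A and 11 and 710 minus reads in Full WT and PHD WT. These 10 sites had between 5 and 26 further junctions within 1 kb. Over all members the reads of the site summed to between 5 and 2390, with a median of 121.

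Within a library, the reads of the plus and the minus junction at one target were not close to each other. In PHD WT the stronger junction had a median of 107 reads and the weaker 11, a median fold of 6.52 over 141 pairs. The pairs of PHD WT at other offsets had a median fold of 5.49. In Full WT the fold was 4.32 over 41 pairs (5.00 at other offsets), in Full M880A 5.07 over 32 (4.37) and in PHD M880A 4.95 over 8 (3.75). Across target sites the correlation of the log2 reads of the junctions was -0.05 in PHD WT, 0.10 in Full WT, -0.06 in Full M880A and -0.17 in PHD M880A. These are descriptions over sites that share a library and its amplification. The plus junction had more reads in 68 of the 141 PHD WT pairs, 22 of 41 in Full WT, 15 of 32 in Full M880A and 4 of 8 in PHD M880A. PCR reads are not independent molecules, so reads order sites only roughly.

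**Figure D4:**
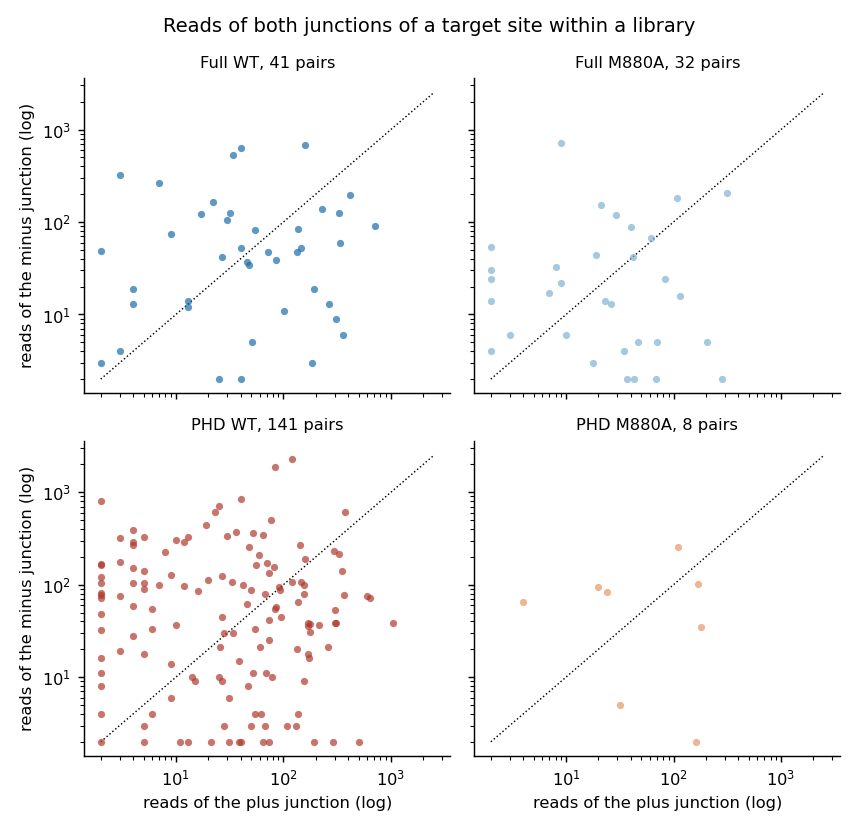
Reads of the minus junction (y axis, log) against reads of the plus junction (x axis, log) at the target sites used in both orientations within each library. Each point is a site and the dotted line marks equal reads; the points scatter widely around it, with median folds of 4.32 in Full WT, 5.07 in Full M880A, 6.52 in PHD WT and 4.95 in PHD M880A.

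Some pairs were deep on both strands. The deepest by the weaker junction were, in PHD WT, chromosome 12 at 112614980 and 112614984 with 377 plus and 615 minus reads, and in Full M880A, chromosome 3 at 130814555 and 130814559 with 314 and 208. In Full WT the deepest was on chromosome 11 at 97171145 and 97171149, with 413 and 197 reads. In PHD M880A it was on chromosome 19 at 5844999 and 5845003, with 110 and 257. The next PHD M880A pair, on chromosome 10 at 67945123 and 67945127, had 168 and 103 reads and no further junction of any library within 1 kb. The weaker junction of the remaining named pairs had 90 to 158 reads in Full WT, 40 to 107 in Full M880A, 143 to 230 in PHD WT and 20 to 35 in PHD M880A. Both junctions had at least 10 reads in 76 of 141 pairs in PHD WT, 27 of 41 in Full WT, 12 of 32 in Full M880A and 5 of 8 in PHD M880A.

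The reads of member junctions differed little from the rest of each library except in PHD WT. There the median was 45 reads (quartiles 9 and 121), against 29 (4 and 98) for its other junctions and 35 for junctions in pairs at other offsets. In Full WT the medians were 46 for members and 41 for other junctions, in Full M880A 21.5 and 24, and in PHD M880A 24.5 and 23. The median length of the listed interval was 107 bp for members and 106 bp for other lines in Full WT, 118 and 147 bp in Full M880A, 114 and 119 bp in PHD WT and 104 and 119 bp in PHD M880A. No interval was computed for these medians.

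Most target sites used in both orientations lay in crowded places, and so did pairs at other offsets. Of the 529 sites, 508 had a further junction of any library within 1 kb, 96% (94.0 to 97.5), with a median of 9. Of the 3111 pairs at other offsets 96.8% (96.2 to 97.4) did, with a median of 10. Any single junction position had another within 1 kb in 41.6% of cases. Within 100 bp the share was 67.3% (63.1 to 71.3) for members and 73.5% (71.9 to 75.1) for pairs at other offsets. These intervals did not overlap, but they take the pairs as independent. Pairs at other offsets can share a junction with a member or with each other, so the intervals are too narrow to decide a difference. The junctions of such a pair can also lie further apart than those of a member. Whether that distance moved the share was not tested. The ratio of +4 to the mean of the other offsets was also taken by level of crowding. It is a description and no test, since the offset is the rule that chose the sites. The ratio was 12.9 (7.62 to 20.8) with no further junction within 1 kb and 11.0 (8.85 to 13.5) with 1 to 4. It was 11.1 (9.30 to 13.3) with 5 to 9 and 9.78 (8.34 to 11.4) with 10 to 19. With 20 or more it was 7.99 (5.98 to 10.5). The values were lower at the crowded end, and the intervals of the first and the last level overlapped.

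**Figure D5:**
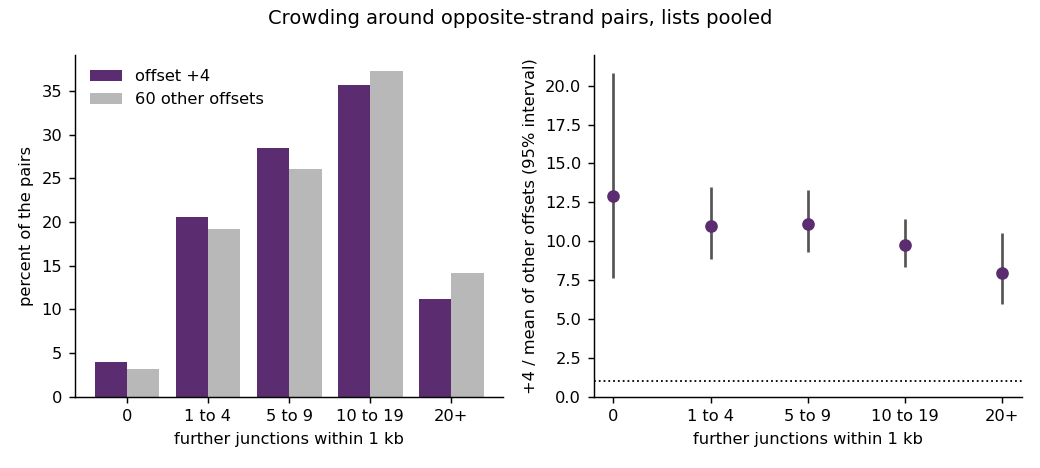
Left, percent of opposite-strand pairs (y axis) by the number of further junctions within 1 kb (x axis), for the 529 pairs at +4 and the 3111 pairs at the 60 other offsets. Right, the count at +4 divided by the mean of the other offsets (y axis) at each level of crowding, with exact conditional 95% intervals. The ratio went from 12.9 with no further junction to 7.99 with 20 or more. The dotted line marks a ratio of 1 for reading the axis and is no test, since the offset is the rule that chose the sites.

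The 21 target sites with no further junction within 1 kb made up 3.97% of the members. Both orientations came from 1 library at 9 of them and from different libraries at 12. PHD M880A was listed at 7, PHD WT at 10, and Full WT and Full M880A at 8 each. The PHD M880A share of the lone sites was 33.3% (14.6 to 57.0), and its share of the 98 lone pairs at other offsets was 42.9% (32.9 to 53.3). On the X chromosome at 91881977 and 91881981, PHD WT had 640 plus and 72 minus reads. On chromosome 16 at 29580288 and 29580292 it had 143 and 271 reads. On chromosome 14 at 33014116 and 33014120, PHD WT had 259 plus reads and Full WT 74 minus reads. On chromosome 7 at 37480339 and 37480343, PHD M880A had 17 plus reads and Full M880A 17 minus reads. Apart from the chromosome 16 site, which was among the deepest PHD WT pairs, the lone sites named here and the stretches named next were chosen after their values were seen.

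Most target sites used in both orientations had no other member within 1 kb. Joined at gaps of up to 1 kb, the members formed 481 places. Of these, 438 held a single site, 40 held 2, 1 held 3 and 2 held 4. Thus 91 sites had another member within 1 kb, and the same count was not made for pairs at other offsets. The smallest distance between members was 14 bp. On chromosome 10, 4 target sites lay within 1160 bp, from 79318292 to 79319451, a stretch with 9 junctions of PHD WT, 7 of Full WT, 3 of PHD M880A and 1 of Full M880A. On chromosome 15, 4 lay within 1581 bp, from 98763741 to 98765321, with 8 Full M880A, 7 PHD WT, 6 Full WT and 1 PHD M880A junctions. On chromosome 11, 3 lay from 86924198 to 86925074, with 6 junctions of PHD WT, 4 of Full WT and 3 each of the M880A libraries. All 4 forms thus had a junction in each of these 3 stretches.

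Members were found on all 20 chromosomes of the lists, from 9 on chromosome 18 to 46 on each of chromosomes 4 and 5. Chromosome 19 held 5.48% (3.70 to 7.78) of the members and 3.33% of all junction positions, and the X chromosome 2.46% (1.31 to 4.17) and 4.54%. Pairs at other offsets had 5.24% on chromosome 19 and 2.51% on X. The interval of the members held the share of the pairs at other offsets on all 20 chromosomes. It held the share of all junctions on 16, the exceptions being chromosomes 4, 17, 19 and X. The ratio of +4 to the other offsets was between 6.62 (3.69 to 11.1) on chromosome 9 and 14.7 (7.58 to 26.8) on chromosome 14.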

How the data were processed

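HIT-seq reads the binding of a chromatin protein from where an HIV-based vector integrates. The authors deposited 1 BED list of sites per library, from paired-end reads per the file headers. The submitters' processing notes name mm9 as genome build and MACS 1.4.2 without its role; for the aligner and filters nothing is given in the sources. A score of 0 fills that deposited column and was not used. The whole number after each read name was taken as reads from its values only. The deposited coordinates have no other normalization.

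The junction was the start plus 1 on the plus strand and the end on the minus strand. Lines that gave 1 junction on 1 strand were joined and their reads summed. Ratios at +4 have exact conditional binomial intervals against the sum over the 60 other offsets, counts have exact Poisson and shares Clopper-Pearson intervals. Further junctions are distinct positions and strands of the pooled lists, without the pair's own. Named are the 10 sites with most combinations of library and strand, ties settled by reads, and the 5 pairs per library with most reads in the weaker junction; lone and grouped sites were added after their values were seen. The members and comparisons were chosen with earlier results of these data known. The bases and genes at the sites were not analysed here, since no mm9 reference was used. The pairing code was tested on simulated data. Calculations used Python 3.11.15, numpy 2.4.6, pandas 2.3.3 and scipy 1.17.1.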

Additional observations from a re-analysis of the deposited data

How the results depend on the processing

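No paired analysis was possible because each group has 1 library. With a minimum of 10 reads, pairs at +4 numbered 120 within and 191 between libraries, at 292 distinct sites, and opposite-orientation reuse was 46.8% of all reuse; fewer junctions enter by construction. Without Full WT there were 142 pairs between libraries and 309 sites, again from fewer junctions, and opposite-orientation reuse was 45.7% (40 to 51.4). Leaving out positions that several libraries list moved the ratio between libraries to 9.16. When the other end of each line was taken as the junction, there were 14 pairs within libraries (ratio 0.751, 0.409 to 1.26), 27 between (0.861, 0.566 to 1.26) and 41 sites. By the listed strand that end lies away from the junction, and what it marks was not tested. Within 5 kb, 97.9% of members had a further junction. Autosomes only, offsets from -100 to +100 and merging of same-strand positions within 10 bp kept the pair counts within 1.5 times and the ratios within their intervals. The interval of the ratio was widest in PHD M880A, which had 8 pairs of its own.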

Other observations

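Pairs between Full M880A and PHD WT were uneven in direction. The plus junction lay in Full M880A and the minus junction in PHD WT at 66 sites, and the reverse held at 31, so that 68% (57.8 to 77.1) had plus in Full M880A. At the other offsets the share was 51.8%. It was 65.3% (50.4 to 78.3) among junctions with at least 10 reads, 66.7% (56.1 to 76.1) with same-strand positions within 10 bp merged and 63.6% (51.9 to 74.3) without positions listed by several libraries, alternatives chosen after seeing the data. Of the 6 pairs of libraries, the intervals of the other 5 held 50%, and the intervals were not adjusted for the 6 pairs looked at.

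After +3 and +5, the highest count of opposite-strand pairs in the pooled lists was at an offset of 0, with 90 pairs, against a mean of 51.9 over all offsets but +4. PHD WT had 21 pairs there by itself, the highest of its offsets outside +3 to +5. Same-strand pairs between libraries had shoulders at 1 bp as well, with 79 at -1 and 82 at +1 beside 482 at 0.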
